A study of Homo sapiens with 2 samples.

Results

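Chemokines, interleukins and their receptors are described here as 101 protein-coding genes among the 11916 protein-coding genes with a named transcript cluster on the arrays. They were chosen by symbol alone (CCL, CXCL, CCR, CXCR or IL followed by a digit), with no filter on level. This choice was made with earlier results of these data known. The cells, the human breast cancer line MDA-MB-231, were pretreated for 24 hours with compound 1 or with a miR-544 antagomir and then kept for 5 days below 1% oxygen. The antagomir is an oligonucleotide that blocks the microRNA miR-544, and compound 1 is directed at the same microRNA in the study. Both groups were hypoxic, 1 array of pooled RNA stands for each treatment, and no untreated or normoxic array was used here. With 1 array per treatment no difference has a replicate check, no test was run, and every value describes these 2 arrays.

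Chemokines are small secreted proteins that steer cell migration through G protein-coupled receptors, and the spacing of their first cysteines divides them into CC (CCL genes) and CXC (CXCL genes) classes. Interleukins are secreted signals that act through single-pass receptors. Those of the interleukin-1 family lead to NF-kB through MYD88, and most others lead to JAK kinases and STAT factors. Tumour cells produce some of these factors themselves. CXCL8 and the receptor CXCR4 in particular have been studied in invasive breast cancer cells.

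The mature microRNA hsa-miR-544a is shown first, with its seed (bases 2 to 8) in capitals. The labels name the microRNA without the final letter a, so this choice is an assumption. Which form of the microRNA each treatment acts on was not tested. The mature strand, a part of the gene MIR544A, lies on chromosome 14 (RefSeq, GRCh38.p14, chr14:101048712-101048733, plus strand).
hsa-miR-544a: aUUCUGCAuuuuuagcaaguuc

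Promoters of 5 members are shown to compare a short form of the NF-kB binding motif, GGNNTTTCC. It was searched on both strands and is printed in capitals. The 5 were chosen by hand and all hold the motif, so they do not stand for the members as a whole. Each window holds 250 bases before and 50 bases after the annotated start (RefSeq, GRCh38.p14) and reads along its gene.
CXCL8 promoter, chr4:73740319-73740618, plus strand: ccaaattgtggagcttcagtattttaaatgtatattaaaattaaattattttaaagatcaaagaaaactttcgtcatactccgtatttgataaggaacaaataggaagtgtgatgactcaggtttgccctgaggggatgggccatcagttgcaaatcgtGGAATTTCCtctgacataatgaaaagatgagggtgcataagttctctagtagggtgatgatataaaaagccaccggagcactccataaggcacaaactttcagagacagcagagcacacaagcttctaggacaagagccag
CXCL2 promoter, chr4:74099146-74099445, minus strand: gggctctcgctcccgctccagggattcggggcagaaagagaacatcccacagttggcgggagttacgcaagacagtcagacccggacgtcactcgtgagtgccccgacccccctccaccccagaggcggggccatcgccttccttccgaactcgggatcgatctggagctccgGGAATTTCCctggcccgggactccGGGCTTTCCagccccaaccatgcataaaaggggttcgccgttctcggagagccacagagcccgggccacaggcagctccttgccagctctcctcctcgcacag
CXCL3 promoter, chr4:74038640-74038939, minus strand: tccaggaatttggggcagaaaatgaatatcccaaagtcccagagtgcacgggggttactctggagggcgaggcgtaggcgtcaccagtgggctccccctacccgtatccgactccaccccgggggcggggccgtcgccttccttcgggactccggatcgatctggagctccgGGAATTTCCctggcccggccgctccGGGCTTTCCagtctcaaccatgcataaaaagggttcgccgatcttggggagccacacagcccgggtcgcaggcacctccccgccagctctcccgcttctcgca
CXCR4 promoter, chr2:136118100-136118399, minus strand: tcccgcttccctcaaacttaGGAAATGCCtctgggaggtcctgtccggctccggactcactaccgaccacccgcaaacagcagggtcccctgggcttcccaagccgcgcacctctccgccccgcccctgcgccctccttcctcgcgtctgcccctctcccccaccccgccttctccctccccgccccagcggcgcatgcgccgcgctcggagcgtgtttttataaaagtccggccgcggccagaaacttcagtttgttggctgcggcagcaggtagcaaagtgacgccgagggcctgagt
IL18R1 promoter, chr2:102355546-102355845, plus strand: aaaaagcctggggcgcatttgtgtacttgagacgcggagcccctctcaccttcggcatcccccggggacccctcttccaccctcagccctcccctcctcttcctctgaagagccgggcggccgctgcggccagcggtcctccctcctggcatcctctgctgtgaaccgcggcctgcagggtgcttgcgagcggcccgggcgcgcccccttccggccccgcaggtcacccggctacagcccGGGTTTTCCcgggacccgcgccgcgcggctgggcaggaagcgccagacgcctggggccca

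CXCL2 and CXCL3, which neighbour each other on chromosome 4, both hold 2 copies, beginning 77 and 53 bases before the start in CXCL2 and 78 and 53 bases before it in CXCL3. CXCL8 holds 1 copy beginning 91 bases before the start. In IL18R1 the copy begins 10 bases before the start, and in CXCR4 it is on the opposite strand, 230 bases before the start. CXCR4 has 3 windows and IL18R1 has 2 in the RefSeq table, of which the first listed is shown. Of the 101 members 77 have a promoter in that table, and 20 of these (26.0%) hold the motif in at least 1 window, against 8.5% of 15843 protein-coding genes with a promoter. Several of the 20 are neighbouring copies with similar promoters, so they are not independent. The median log2 difference between the arrays was 0.025 for the 20 members with the motif and 0.058 for the 57 without it. Past 1.5-fold higher were 1 of the 20 and 2 of the 57, and 0 of either were past 1.5-fold lower. A match of letters is a description and shows no binding.

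Most of these genes gave little signal. A level was called entering when the higher of its 2 array values reached the median of all clusters, a log2 signal of 5.60, which stands in for a detection call. Of the 101 members 49 entered (48.5%), against 80.4% of all protein-coding genes, 40 of them on both arrays, 6 on the compound 1 array alone and 3 on the antagomir array alone. The share was 17 of 23 among interleukin receptors and receptor antagonists, 11 of 27 among interleukins, 10 of 22 among CC chemokines, 5 of 13 among CXC chemokines, 2 of 8 among CC receptors and 2 of 6 among CXC receptors. Probes differ in brightness, so a higher signal of 1 gene than of another does not show more of its RNA.

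**Figure D1:**
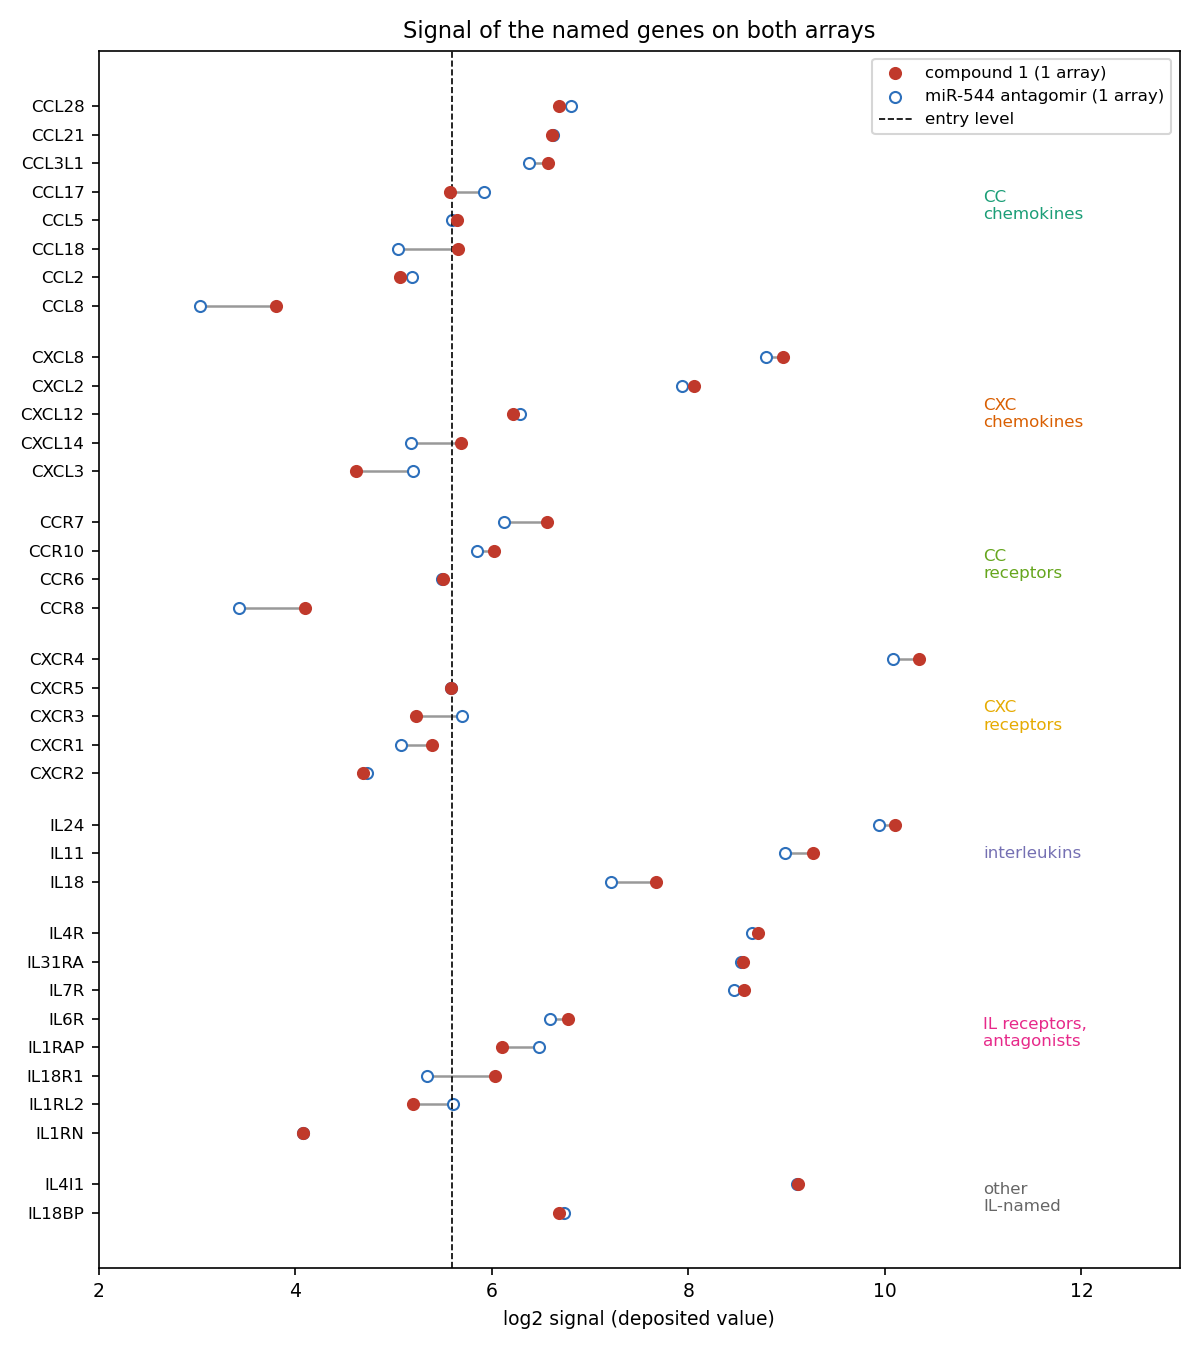
Deposited log2 signal (horizontal axis) of 35 named genes, grouped by role, with filled points for compound 1 and open points for the antagomir (1 array each, so no error bars). The dashed line is the entry level of 5.60. CXCR4, IL24, IL11 and CXCL8 lie well to its right on both arrays with the compound 1 value higher, while CCL8 and CCR8 differ more but lie left of it.

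Differences, given as compound 1 minus antagomir on the log2 scale, were small. Past 1.5-fold, 4 members were higher on the compound 1 array and 0 were lower, against 0.655% and 0.478% of all protein-coding genes. These 4 were CCL8, IL18R1, CCR8 and CCL18, and none of them entered on both arrays. CCL18 at 0.60 lay just past this threshold, and CXCL3 at -0.58 (1.49-fold lower) fell just short of it. The direction of this count depended on the scaling, with 3 higher and 2 lower after cyclic loess and 2 higher and 3 lower after subtraction of the median of genes of like signal. The count also went with low signal. Of members entering on neither array 2 of 52 were past 1.5-fold higher, against 62 of 2332 protein-coding genes. Of those entering on both, 0 of 40 were, against 5 of 9226. Past 1.5-fold lower were 0 members in each, against 22 and 26 genes. IL18R1 and CCL18 entered on the compound 1 array alone. Past 2-fold there were 0 members, against 0.0252% of protein-coding genes in each direction. Beyond a smaller log2 difference of 0.32, 10 members were higher and 9 lower (9.90% and 8.91%, against 5.05% and 5.1%). The members' median was 0.042, against -0.023 for all protein-coding genes, and 58 were higher (57.4%, against 44.1%), 39 lower (38.6%, against 54.3%) and 4 identical (4.0%, against 1.69%). How large this contrast over all members was depended on the scaling. It was smaller after quantile normalization (57.4% higher against 51.1%) and cyclic loess (51.5% against 48.9%). After subtraction of the median of genes of like signal it was also smaller, at 51.5% against 49.98%, with a members' median of 0.011. Centring on array medians did not make it smaller (52.5% against 38.3%).

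In the deposited values direction varied with signal, and in opposite ways for the members and for all genes. In 20 bins of level, protein-coding genes had a median of 0.11 at the lowest signals and -0.073 at the highest. Among the 40 members that entered on both arrays 27 were higher (67.5%, against 39.2% of protein-coding genes entering on both) and 13 lower (32.5%, against 59.7%), with a median of 0.067 against -0.043. A further split, by the mean over both arrays at the 75th percentile of level, was chosen after seeing the data. The 15 members at or above that level had 11 higher (73.3%, against 30.8%) and 4 lower (26.7%, against 68.5%). Their median was 0.062 against -0.072. With cyclic loess the shares higher were 67.5% against 48.2% for the 40 and 80% against 46.6% for the 15. With centring on array medians they were 60% against 32.7% and 53.3% against 23.8%. After centring the members' share was thus lower for the 15 than for the 40, as it was for all genes. Among the 52 members that entered on neither array 25 were higher and 23 lower, with a median of 0.0 against 0.069. Single values were therefore set beside the central 90% of protein-coding genes in the same level bin, a range that describes spread between genes and not between replicates. Above that range lay 12 members (11.9%, against 5.04% of protein-coding genes) and below it 8 (7.92%, against 5.04%). Of the 40 entering on both arrays, 6 lay above (15%, against 4.85%) and 1 below (2.5%, against 4.88%). Of the 15 at or above the 75th percentile, 5 lay above (33.3%, against 4.98%) and 0 below (against 5.07%).

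**Figure D2:**
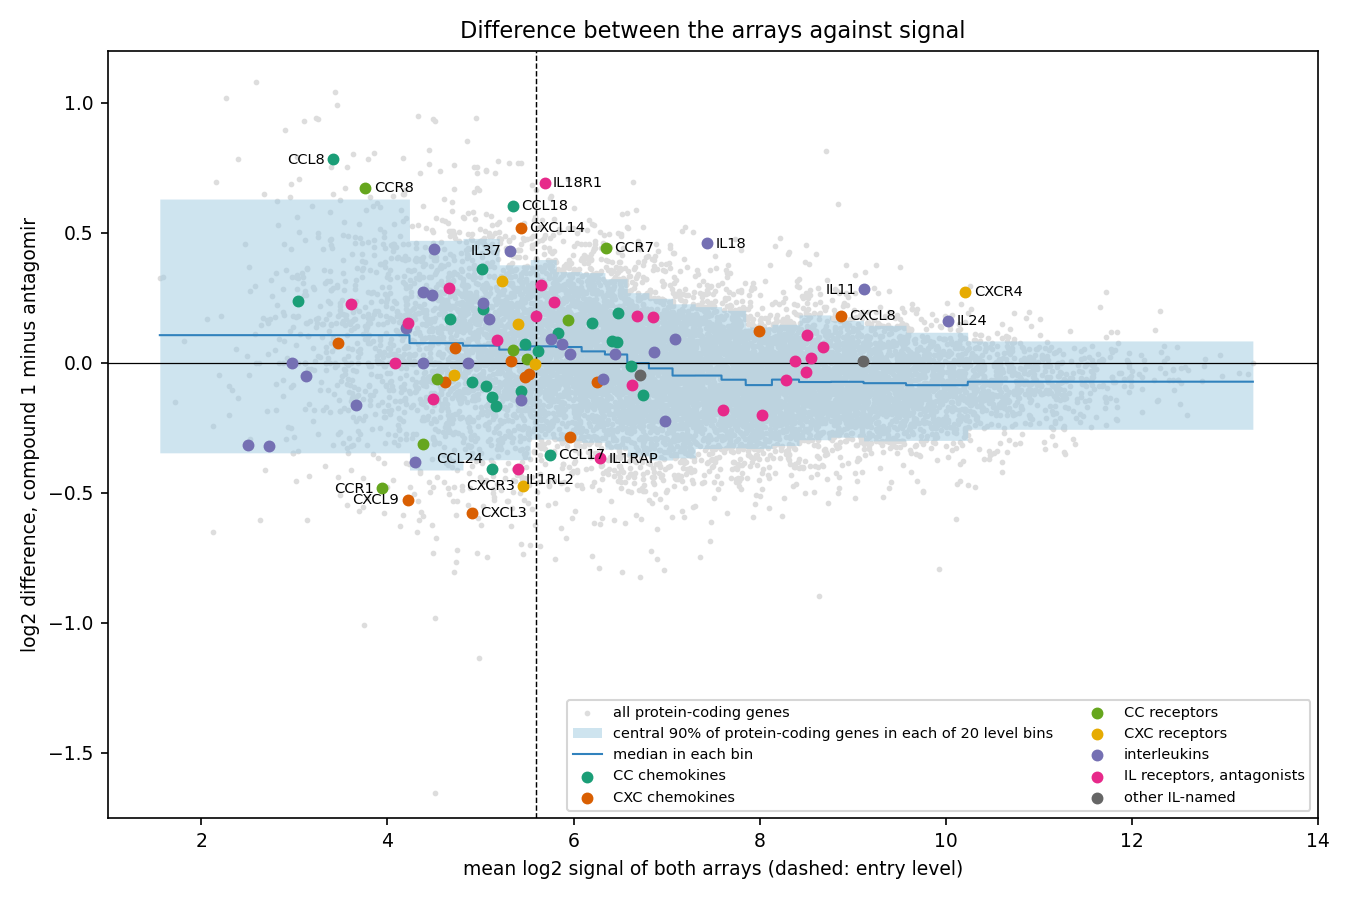
Log2 difference, compound 1 minus antagomir (vertical axis), against the mean log2 signal of both arrays (horizontal axis). Grey points are all 11916 protein-coding genes, coloured points the 101 members by role, the band the central 90% of protein-coding genes in each of 20 level bins and the line their median. The 20 labelled members lie outside the band of their own bin. CXCR4, IL24, IL11, CXCL8 and IL18 stand above it at high signal, where the band is narrow.

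CXCR4 encodes the receptor for CXCL12 and is known for its part in homing and metastasis. Its log2 signal was 10.35 with compound 1 and 10.08 with the antagomir, a difference of 0.27 (1.21-fold), above the level range of -0.30 to 0.12. CXCL12, its ligand, was close on both arrays, at 6.21 with compound 1 and 6.29 with the antagomir (-0.074). The receptor was thus higher on the compound 1 array while its ligand was slightly lower there.

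The chemokines that attract neutrophils through CXCR2 did not share a direction. CXCL8, which also acts through CXCR1, was at 8.96 with compound 1 and 8.78 with the antagomir, a difference of 0.18 (1.13-fold) just above its level range of -0.29 to 0.16. CXCL2 was at 8.06 with compound 1 and 7.94 with the antagomir (0.12), inside the range of -0.33 to 0.14. CXCL3, in contrast, was at 4.62 with compound 1 and 5.19 with the antagomir, the lowest difference of all members (-0.58), with both values under the entry level. CXCL5 (-0.054) and CXCL6 (0.077) were under the entry level as well. The receptors themselves gave signals under that level, CXCR1 at 5.39 with compound 1 and 5.07 with the antagomir and CXCR2 at 4.69 and 4.73. CXCL2 and CXCL3, whose promoters are shown above, thus differed in opposite directions, CXCL2 inside its range and CXCL3 under the entry level. Any part of the motif in this was not tested. CXCL1 is not analysed here.

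Among the other CXC genes, the receptor CXCR3 and CXCL9, one of its interferon-induced ligands, were both lower on the compound 1 array. CXCR3 was at 5.22 with compound 1 and 5.70 with the antagomir (-0.47), but its cluster shares both values with another cluster on the array. CXCL9 was at 3.95 with compound 1 and 4.48 with the antagomir (-0.53), under the entry level on both. The other ligands of CXCR3, CXCL10 and CXCL11, had differences of -0.074 and 0.0078. CXCL14, a chemokine of epithelia, was higher, at 5.69 with compound 1 and 5.17 with the antagomir (0.52). CXCL16, the membrane-bound ligand of CXCR6, was at 5.82 with compound 1 and 6.11 with the antagomir (-0.29), and CXCR6 was under the entry level at 5.48 and 5.33. The 13 CXC chemokines had 6 higher and 7 lower (median -0.042), and the 6 CXC receptors had 3 in each direction (median 0.072). CXCR5, the receptor of CXCL13, was nearly equal on both arrays (-0.0040).

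CC chemokines included a pair past 1.5-fold. CCL8, a monocyte attractant, had the highest difference of all members (0.78, 1.72-fold), at 3.81 with compound 1 and 3.02 with the antagomir, both under the entry level. CCL18, which is mainly known as a product of macrophages and dendritic cells, was at 5.65 with compound 1 and 5.05 with the antagomir (0.60, 1.52-fold), so that only the compound 1 value reached the entry level. CCL17, a ligand of CCR4, was lower, at 5.57 with compound 1 and 5.92 with the antagomir (-0.36), and so was the eosinophil attractant CCL24, at 4.92 and 5.33 (-0.41). These 4 were the CC chemokines outside their level range.

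The other CC chemokines lay inside their level ranges. CCL3, under the entry level, was at 5.19 with compound 1 and 4.83 with the antagomir (0.36). CCL28, a mucosal ligand of CCR10, was at 6.68 with compound 1 and 6.81 with the antagomir. CCL21, a ligand of CCR7, was at 6.61 and 6.62 in the same order. CCL3L1 was at 6.57 with compound 1 and 6.38 with the antagomir (0.19), and since it is a near-identical copy of CCL3 their signals may mix. CCL5, which attracts T cells and monocytes, was at 5.64 and 5.59 (0.046), and the monocyte attractant CCL2 was under the entry level at 5.06 and 5.19 (-0.13). Over the 22 CC chemokines 13 were higher and 9 lower, with a median of 0.076.

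Of 8 CC receptors only CCR7 and CCR10 entered. CCR7, which guides cells to lymph nodes along CCL19 and CCL21, was at 6.56 with compound 1 and 6.12 with the antagomir (0.44, 1.36-fold), above its level range of -0.33 to 0.32. CCL19 differed by 0.079. CCR10 was at 6.02 with compound 1 and 5.85 with the antagomir (0.17), and its other ligand CCL27 was at 6.28 and 6.12 (0.15). CCR8, the receptor of CCL1, was past 1.5-fold at 4.10 with compound 1 and 3.43 with the antagomir (0.67, 1.59-fold), with both values under the entry level, and CCL1 differed by -0.090. CCR1, a receptor for CCL3 and CCL5, was at 3.70 with compound 1 and 4.18 with the antagomir (-0.48). CCR6 was nearly equal (0.016). The group had 5 higher and 3 lower, with a median of 0.032 that was -0.00012 after quantile normalization, -0.028 after cyclic loess and -0.018 after subtraction of the median of genes of like signal, so the sign depended on the scaling.

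**Figure D3:**
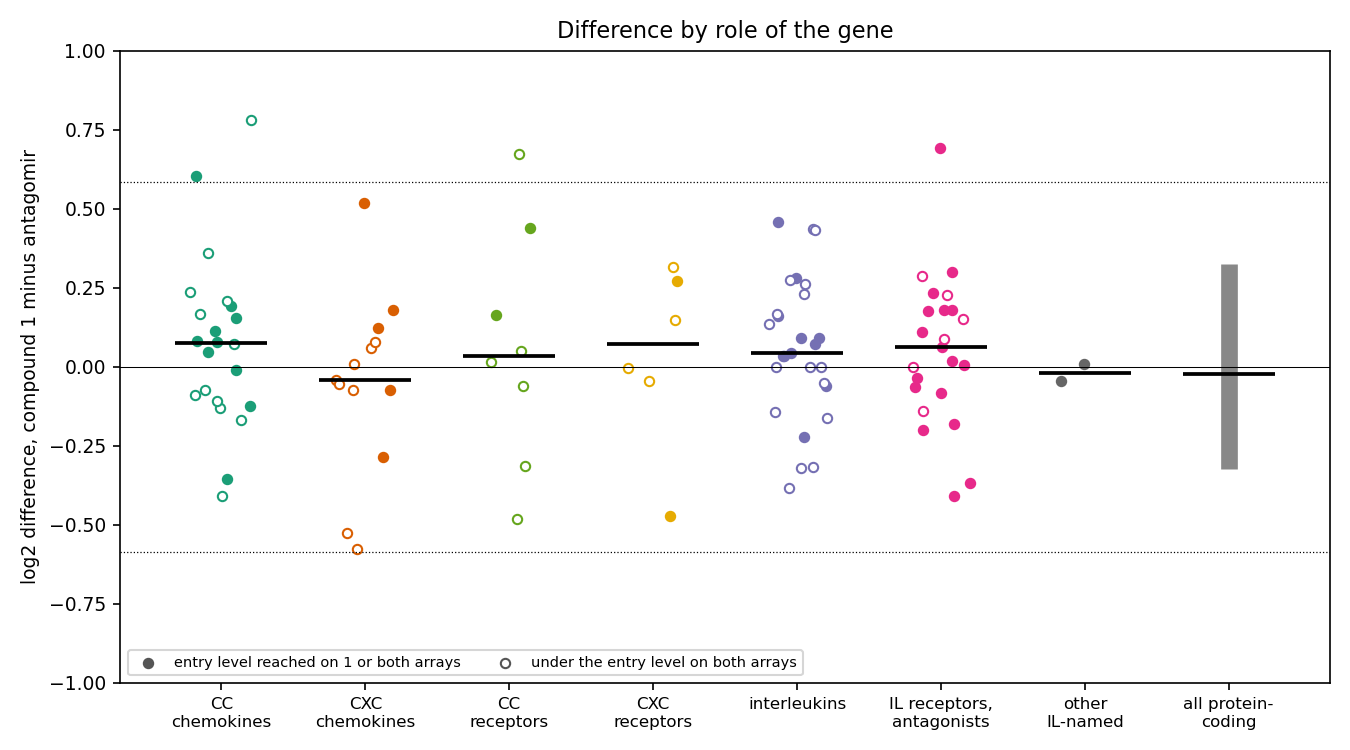
Log2 difference, compound 1 minus antagomir, of each member by role. Filled points reached the entry level on 1 or both arrays, open points on neither, black lines are group medians, the grey bar is the central 90% of all 11916 protein-coding genes and dotted lines mark 1.5-fold. CCL8, CCL18, CCR8 and IL18R1 are the points beyond the upper dotted line, and no point lies beyond the lower one.

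IL11, IL24 and IL18 were higher on the compound 1 array. They are the 3 interleukins with a mean level at or above the 75th percentile, a split chosen after seeing the data. IL11, a cytokine of the interleukin-6 family that signals through the shared chain gp130, was at 9.27 with compound 1 and 8.98 with the antagomir (0.28, 1.22-fold), above its level range of -0.30 to 0.14. IL24, of the interleukin-10 family, was at 10.10 with compound 1 and 9.94 with the antagomir (0.16, 1.12-fold), above a range of -0.30 to 0.12. IL18, an interleukin-1 family cytokine that caspase-1 activates, was at 7.67 with compound 1 and 7.21 with the antagomir (0.46, 1.37-fold), above a range of -0.33 to 0.22. Both values of each of these genes lay above the entry level. IL32 went the other way, at 6.87 with compound 1 and 7.09 with the antagomir (-0.22), inside its range.

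In all, 11 interleukins entered, each on both arrays, and 9 of them were higher (81.8%, against 39.2% of protein-coding genes entering on both) and 2 lower (IL32 and IL27), with a median of 0.072. After subtraction of the median of genes of like signal the share of protein-coding genes higher was 49.7%. Of the 9, IL16 was then lower (-0.027) and the rest stayed higher, IL17B (0.0027) and IL34 (0.011) only slightly. Over all 27 interleukins 16 were higher, 8 lower and 3 identical on both arrays (IL15, IL17A and IL26), with a median of 0.042. IL37, an inhibitory interleukin-1 family member, was above its level range (0.43) but under the entry level. IL6, IL1A and IL1B are not analysed here.

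The receptor of IL18 was higher as well. IL18R1, its ligand-binding chain, was at 6.03 with compound 1 and 5.34 with the antagomir (0.69, 1.62-fold), with the antagomir value under the entry level. The partner chain IL18RAP entered on neither array, at 4.30 with compound 1 and 4.14 with the antagomir (0.15). IL18BP, the secreted inhibitor of IL18, was at 6.69 with compound 1 and 6.73 with the antagomir (-0.046). The cytokine and its binding chain were thus higher with compound 1 by more than their level ranges, and the inhibitor was not.

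Receptors of other interleukin-1 family members were lower or close. IL1RAP, the accessory chain shared by the interleukin-1, interleukin-33 and interleukin-36 receptors, was at 6.11 with compound 1 and 6.47 with the antagomir (-0.37, 1.29-fold), below its level range of -0.31 to 0.35. IL1RL2, the interleukin-36 receptor, was at 5.19 with compound 1 and 5.60 with the antagomir (-0.41), while IL36RN, which encodes its antagonist, was at 5.80 and 5.50 (0.30). IL1RL1, the interleukin-33 receptor, differed by 0.088 under the entry level. The interleukin-1 receptor antagonist gene IL1RN had the identical value of 4.08 on both arrays and shares it with other clusters.

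Other interleukin receptors lay inside their level ranges. IL17RB, under the entry level, was at 4.80 with compound 1 and 4.51 with the antagomir (0.29). IL21R, which entered on both arrays, was at 5.91 and 5.67 (0.23). IL4R was at 8.71 with compound 1 and 8.65 with the antagomir, IL7R at 8.57 and 8.46, and IL31RA at 8.56 and 8.54, all inside their level ranges. IL6R was at 6.77 with compound 1 and 6.59 with the antagomir (0.18). The interleukin-17 receptor genes that entered on both arrays had differences from -0.20 (IL17RC) to 0.18 (IL17REL), with IL17RA at -0.065, IL17RE at -0.035 and IL17RD at 0.0063. The 23 genes of this group, which includes the antagonists, had 14 higher, 8 lower and 1 identical, with a median of 0.062. IL4I1, an L-amino acid oxidase gene named for its induction by interleukin-4, was at 9.12 with compound 1 and 9.11 with the antagomir.

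Ligands were set beside their receptors where both are members. In the interleukin-7 axis the receptor entered, but IL7 was under the entry level and at -0.38. In the interleukin-4 axis IL4 was under it at 4.26 with compound 1 and 4.13 with the antagomir. For the interleukin-17 receptors, IL17C was at 7.14 with compound 1 and 7.05 with the antagomir, and its receptor IL17RE was slightly lower with compound 1. CXCR4 with CXCL12, CCR7 with CCL19 and CCL21, CCR10 with CCL27 and CCL28, and IL17RE with IL17C had both sides entering on both arrays.

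Many members lie in runs of neighbouring genes in the RefSeq annotation. Their directions are set beside 44.1% higher over all protein-coding genes, and 60.5% (median 0.069) over those entering on neither array. On chromosome 1, IL10, IL19, IL20 and IL24 were all higher (median 0.22), but only IL24 entered. On chromosome 2, IL1RL1, IL18R1 and IL18RAP were higher and their neighbour IL1RL2 was lower. On chromosome 3, CCR9, CXCR6, CCR1 and CCR2 had 2 in each direction (median -0.13), with none entering. On chromosome 9, CCL27 and CCL19 were higher and CCL21 lower (median 0.079), and all 3 entered. Of the 6 CC chemokines CCL5, CCL16, CCL23, CCL18, CCL3 and CCL4 on chromosome 17, 5 were higher (median 0.093), and 3 of the 6 entered. After subtraction of the median of genes of like signal CCL5 was lower (-0.017), while CCL23, CCL18, CCL3 and CCL4 stayed higher. The run of CCL2, CCL7, CCL11, CCL8 and CCL1 on the same chromosome had 2 higher and 3 lower, with none entering. On chromosome 4, CXCL5, CXCL3 and CXCL2 had 1 higher and 2 lower, as did CXCL9, CXCL10 and CXCL11.

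Genes that carry these signals inside the cell were examined as 4 lists. Of 30 NF-kB pathway genes 19 were measured, all entering, with 6 higher, 12 lower and 1 identical and a median of -0.025, near that of all protein-coding genes (-0.023). After quantile normalization this median was 0.051 and after cyclic loess 0.046, so its sign depended on the scaling. TRAF1, an NF-kB target and adaptor of tumour necrosis factor receptors, was at 6.96 with compound 1 and 7.44 with the antagomir (-0.48), below its level range, and NFKB1 and RELA, which encode the p50 precursor and p65, were at -0.052 and -0.025. The adaptor gene TAB3 (0.17) and TNIP2 (0.16), an inhibitor of NF-kB, were above theirs.

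Of 18 adaptors and effectors of interleukin-1 and Toll-like receptors 13 were measured, all entering, with 8 higher, 4 lower and 1 identical and a median of 0.10. MYD88, the central adaptor, was at 8.24 with compound 1 and 8.02 with the antagomir (0.23, 1.17-fold), and TOLLIP, an inhibitor, at 8.08 and 7.93 (0.15). PELI2, a ubiquitin ligase of this pathway, was at 6.08 with compound 1 and 5.44 with the antagomir (0.64, 1.56-fold) and was the single gene of the list past 1.5-fold. These 3 of 13 lay above their level ranges and 0 lay below, against 5.04% of protein-coding genes on each side. IRAK3, an inhibitor of the pathway's kinases, was at 6.91 with compound 1 and 7.21 with the antagomir (-0.30).

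Of 25 JAK, STAT and SOCS genes 16 were measured, with 11 higher and 5 lower and a median of 0.027, which was -0.0022 after centring on array medians and 0.093 after quantile normalization, so that its sign depended on the scaling. STAT5A was at 7.40 with compound 1 and 7.17 with the antagomir (0.23), just above its range, and STAT3 was at 11.21 and 11.17. SOCS3, a feedback inhibitor that STAT3 induces, was at 8.14 with compound 1 and 8.29 with the antagomir (-0.15). Of 41 related cytokines, chemokines and receptors named outside the symbol rule 28 were measured, with 13 higher and 15 lower (median -0.0010). LIF, which signals through gp130 as IL11 does, was at 8.74 with compound 1 and 8.84 with the antagomir (-0.099), and CSF3, a neutrophil growth factor, at 7.85 and 8.06 (-0.22). PF4, a platelet CXC chemokine, was at 7.51 with compound 1 and 7.17 with the antagomir (0.34), the single gene of this list above its level range. Below theirs, and under the entry level, were 2 genes. XCL1, a chemokine of lymphocytes, was at 3.29 with compound 1 and 3.84 with the antagomir (-0.55). ACKR4, a scavenger receptor of CCL19 and CCL21, was at 2.94 with compound 1 and 3.38 with the antagomir (-0.44).

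**Figure D4:**
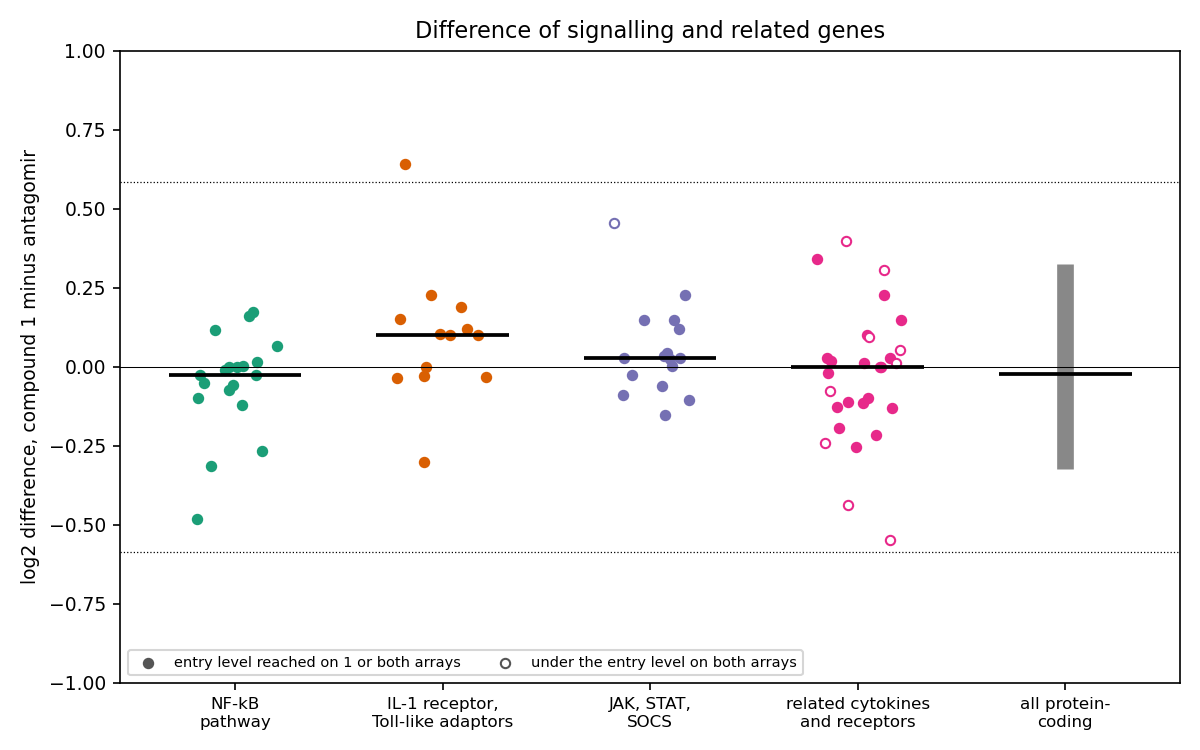
Log2 difference, compound 1 minus antagomir, of the measured genes of 4 lists. Filled points reached the entry level on 1 or both arrays, open points on neither, black lines are medians, the grey bar is the central 90% of all 11916 protein-coding genes and dotted lines mark 1.5-fold. PELI2, at 0.64, is the point beyond a dotted line, and TRAF1, at -0.48, is the lowest NF-kB pathway gene.

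The labelled cell line was set beside marker genes. AXL, ANXA1, VIM and CD44, which this mesenchymal-like line expresses, had log2 signals of 9.04 to 12.77 with compound 1 and 9.08 to 12.78 with the antagomir. ESR1 and PGR were under the entry level on both, whereas KRT19, EPCAM and ERBB3, listed as low or absent in this line, were above it. Of 12 leukocyte markers 4 were measured (CSF1R, CD14, NKG7 and CD2), at 5.48 to 6.59 with compound 1 and 5.18 to 6.31 with the antagomir, and all 4 were higher with compound 1, by 0.10 to 0.33, each inside its level range. The linear signals of these 4 summed to 296.7 with compound 1 and 248.9 with the antagomir. PTPRC and CD3E are not analysed here. Of 6 endothelial markers 4 were measured, at 5.57 to 7.29 with compound 1 and 5.32 to 7.27 with the antagomir, again all higher (median 0.088, sums of 390.2 and 368.8). The 2 measured fibroblast and adipocyte markers, DCN and LUM, were under the entry level. The leukocyte and endothelial markers went in the direction of the members' median. Most of them had signals at which the median of protein-coding genes was above 0 as well. The 4 markers that the line expresses were all lower with compound 1 (-0.13 to -0.011). Of the markers listed as low or absent in it, 3 were higher and 2 lower. The part of any of these markers in the results was not tested. In bulk RNA, fewer cells of a type and less RNA per cell cannot be told apart, and treatment cannot be told apart from pool or hybridisation.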

How the data were processed

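Pooled RNA of hypoxic MDA-MB-231 cells was hybridised to 1 Affymetrix array per treatment, per the labels. The series design speaks of 3 samples pooled, and does not say whether that holds per treatment. The deposited values are 1 per transcript cluster and array on a log2 scale, as their range shows. How the authors normalized and corrected them, and the log base, is not stated in the labels, and each fold assumes base 2. Array medians were 5.62 (compound 1) and 5.59 (antagomir).

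Of 53617 clusters 16098 have 1 gene symbol in the platform table, 0 have several, and the rest are unnamed here. All 16098 gene identifiers matched RefSeq (GRCh38.p14), which gave gene types and neighbours. Each member has 1 cluster, and other genes were represented by the cluster of highest mean. The members and lists were chosen with earlier results of these data known. No symbol-rule gene was left out for its level. Of 106 symbols that fit the pattern, 5 code for no protein and were set aside.

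Named genes were the 3 highest by mean signal per role (a choice of what to name, not an order of abundance), members past 1.5-fold, the 4 highest and 4 lowest differences among entering members, and a list of well-known members (35 in all, with 5 looked up and not analysed here). Other genes were named after their values were seen, mostly to complete a count. Alternatives covered scaling, cluster choice and level filter. The counting functions were tested on simulated data. Tools were Python 3.11.15, numpy 2.4.6, pandas 2.3.3, matplotlib 3.10.9, R 4.3.3 and limma 3.58.1. The number of arrays limits the precision.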

Additional observations from a re-analysis of the deposited data

How the results depend on the processing

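Omission of the 4 members with identical values and the split by mean level at the 75th percentile were chosen after seeing the data. The omission changed no count by over 1.5 times and no median by more than its standard error over genes, the limit used for medians here. Cluster choice could not change a member, since each has 1 cluster. The 35 named genes moved by less than 1 robust SD of protein-coding genes of like signal in 140 of 140 comparisons with the 4 other scalings. Centring and bin subtraction shift all genes of like signal by the same amount, which was below that SD at every level. Those comparisons could therefore not come out otherwise, and the count does not show that the genes are stable. Of the 35, 30 kept their sign, while CCL5, CCR6, IL1RN, IL31RA and IL4I1, all near 0, did not. CCL8 and IL18R1 stayed past 1.5-fold under each scaling. CCL18 fell short of the threshold under each of the 4, and CCR8 under subtraction of the level-bin median, which left 2 members higher. CXCL3 passed it as lower after centring (1 member) and quantile normalization (1), CXCL3 and CXCL9 after cyclic loess (2), and CCR1 too after bin subtraction (3). At the smaller threshold of 0.32 the counts were 10 higher and 9 lower.

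The share of members higher was 52.5% after centring, 57.4% with quantile scaling, 51.5% with cyclic loess and 51.5% with bin subtraction, against 38.3%, 51.1%, 48.9% and 49.98% of protein-coding genes. The members' median was 0.013 after centring and 0.011 after bin subtraction, 0.072 with entry on either array and 0.076 with entry at the 75th percentile. NF-kB genes had medians of -0.055 (centred), 0.051 (quantile), 0.046 (loess) and 0.059 (bin subtraction). Interleukin-1 and Toll-like adaptors had 0.16 (quantile) and 0.15 (bin subtraction), and JAK, STAT and SOCS genes -0.0022 (centred), 0.093 (quantile), 0.084 (loess) and 0.091 (bin subtraction).

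Filters changed counts by leaving fewer genes. Entry on either array also admitted 6 members through the compound 1 array alone and 3 through the antagomir array alone, each where its value was higher. CCL18 and IL18R1, the members past 1.5-fold under that filter, were among the 6. With entry on either array 2 members were past 1.5-fold higher, 33 were higher and 16 lower at any size; with entry on both arrays these were 0, 27 and 13, at the 75th percentile on either array 0, 12 and 4, and by mean level at the 75th percentile 0, 11 and 4. CC receptors then had a median of 0.30 with either kind of entry (2 genes). CXC receptors had -0.10 with entry on either array (2 genes) and 0.27 with both or at the 75th percentile (1 gene). CXC chemokines had 0.12, 0.024 and 0.15 in that order of filters. Interleukin receptors had 0.0063 with both arrays and -0.014 at the 75th percentile, where interleukins had 0.22 (0.28 by mean level) and related cytokines -0.11. Entry at the 25th percentile admitted 88 members and at the 75th 16. No paired analysis was possible because only 1 array stands for a treatment.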

Other observations

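Symbols of the same pattern that code for no protein lay under the entry level throughout. The antisense RNA gene IL21R-AS1 was at 5.33 with compound 1 and 5.13 with the antagomir (0.20), beside its sense partner IL21R at 5.91 and 5.67 (0.23). Whether the array separates the strands was not tested. The pseudogene CXCR2P1 differed by 0.11 and the read-through gene CCL15-CCL14 by -0.089. IL10RB-DT had identical values on both arrays (3.92). The 2 clusters of IL12B-AS1 differed by 0.0 and -0.18, and so did not give the same value for 1 gene.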
